A study of Mus musculus with 2 samples.

Results

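The genes described here encode the proteins of the chemical synapse: 20 of the presynaptic terminal and 15 of the postsynaptic side, 35 in all. They were chosen by name, but with earlier results of these data known. Messenger RNA was measured in brain tissue of male C57Bl/6 N mice aged 12 weeks. One group was wild type (Il18+/+) and the other carried no functional gene for the inflammatory cytokine interleukin-18 (Il18-/-). No further allele or agent is named for either group. RNA from 7 mice of a genotype was mixed and read on 1 one-colour array of oligonucleotide probes, so each genotype is 1 sample. Differences between the pools therefore have no replicate error and no p-value. In such bulk RNA, fewer cells of a type cannot be told apart from less RNA per cell. The sample labels give hippocampus, but prefrontal cortex is written in the extraction protocol and in part of the design text. All 35 genes were among the 15737 named genes measured on both arrays, and all 63 of their probes were well above background on each array. Of the 35, 20 were read by 1 probe and 15 by several, up to 6.

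At a synapse, vesicles filled with transmitter are tethered, primed and fused with the membrane of the terminal when calcium enters. Fusion is carried out by SNARE proteins under the control of calcium sensors and complexins, at an active zone built from large scaffold proteins. Neurexins of the terminal bind neuroligins across the cleft, and a lattice of scaffold proteins holds receptors and calcium-dependent enzymes on the other side. In hippocampus and cortex these genes are active in most neurons, and some mark glutamatergic cells.

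A level is the log2 signal after subtracting the array's 75th percentile, and a gene's level is the mean over its probes. A difference is Il18-/- minus Il18+/+ on that log2 scale. Probes bind with different strength, so levels are compared between arrays and not between genes. The probe of Il18, the deleted gene, went from 1.37 in Il18+/+ to -0.12 in Il18-/-, and its place relative to the deletion is not known here, so it does not check the genotype. Well above background were 67.2% of all probes in Il18+/+ and 65.4% in Il18-/-. Over 193 probes with 10 usable spots, the spread of the difference between spots had a median SD of 0.07 and a 95th percentile of 0.23, which is technical error within these arrays only. The error of a difference by the extraction software was larger, with a median of 0.20 over the 63 synaptic probes.

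Synaptic genes as a group had nearly the same levels in both genotypes. Of the 35, 19 were higher and 16 lower in Il18-/-, and the median difference was 0.03, against 0.01 for all measured genes, of which 47.4% were lower. This near-even split depended on the scaling of the arrays. Of the 35, 12 were lower with median scaling, 23 with quantile normalization, 25 with loess normalization and 34 when spike-in controls were set equal. The median of all measured genes was 0.07, -0.0055, 0.002 and -0.29 in that order. The differences ran from -0.48 for Sv2b to 0.32 for Dlg4. None of the 35 reached 1.5-fold in either direction, a size reached by 4.25% of all measured genes, 2.57% being lower. At the smaller size of 1.2-fold, 7 of the 35 were lower, namely Sv2b, Homer1, Slc17a7, Shank2, Unc13a, Rims1 and Nrxn3, and 1 was higher, Dlg4. Among all measured genes 19.7% were past this size, 12.4% on the lower side and 7.33% on the higher.

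**Figure D1:**
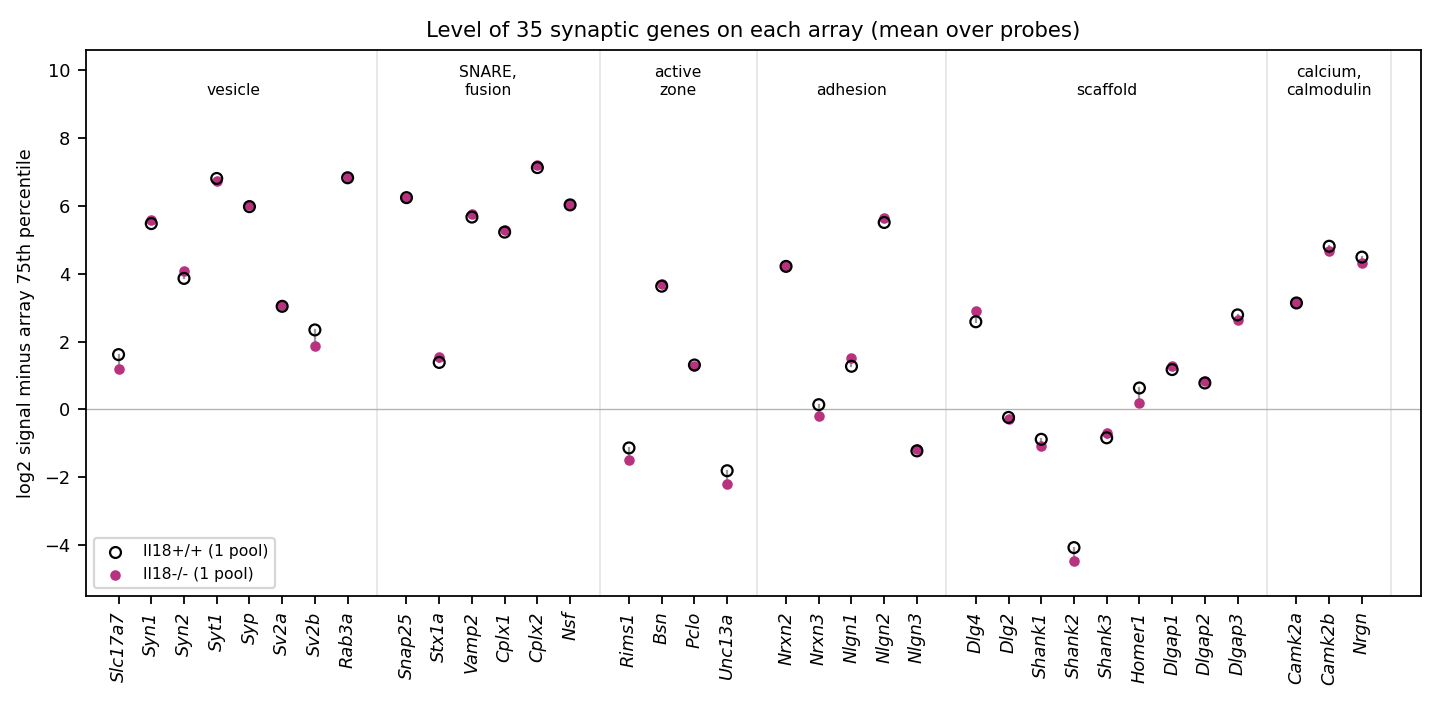
Level of each of the 35 genes (vertical axis, log2 signal minus the array's 75th percentile, mean over the gene's probes) in the Il18+/+ pool (open circles) and the Il18-/- pool (filled circles), grouped by role; each symbol is 1 pool. The symbols of most genes lie on each other, and Sv2b, with 2.35 and 1.87, is the gene whose symbols are farthest apart.

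Among the 8 vesicle genes, 5 were higher and 3 lower, with a median of 0.03, and the differences beyond 1.2-fold were both downward. Slc17a7, the transporter that loads glutamate into vesicles of cortical and hippocampal neurons, read 1.62 in Il18+/+ and 1.19 in Il18-/-, a difference of -0.43 or 1.34-fold. Sv2b, a vesicle glycoprotein, read 2.35 and 1.87, a difference of -0.48 or 1.39-fold. Each was read by a single probe. The relative Sv2a, the target of an antiepileptic drug, read 3.04 and 3.07. Syn1, a synapsin that tethers vesicles to the cytoskeleton, read 5.48 and 5.57. Its relative Syn2 read 3.86 and 4.09, a difference of 0.23, with its 2 probes at 0.09 and 0.36. The other vesicle genes were nearly level. Syt1, the calcium sensor of fast release, read 6.81 and 6.73. Syp, which encodes the abundant vesicle protein synaptophysin, read 5.98 and 6.03, and Rab3a, a GTPase of the vesicle surface, read 6.83 and 6.87. Apart from Slc17a7, Sv2b and Syn2, each vesicle gene lay within 0.10 of 0.

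The fusion machinery differed little. Of 6 genes 5 were higher, with a median of 0.07 and a range from -0.02 to 0.17. All but Stx1a lay in the highest quartile of level, where 26.2% of all measured genes were lower. With loess normalization Snap25, Nsf, Cplx1 and Cplx2 were below 0, at -0.12, -0.07, -0.03 and -0.03, while Stx1a and Vamp2 were above 0, at 0.13 and 0.009. Snap25, a SNARE of the target membrane, read 6.25 in Il18+/+ and 6.23 in Il18-/-. Its partner Stx1a read 1.39 and 1.56, and Vamp2, the SNARE of the vesicle, read 5.67 and 5.78. None of these SNARE genes was beyond 1.2-fold. Cplx1 and Cplx2 encode complexins, which hold the assembled SNARE complex until calcium arrives. Cplx1 read 5.23 and 5.29, and Cplx2 read 7.13 and 7.21 as the mean of 4 probes whose differences all lay between 0.01 and 0.14. Nsf, the ATPase that takes used SNARE complexes apart, read 6.03 and 6.06.

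Of the 4 active zone genes 3 were lower, with a median of -0.19. Unc13a, which primes vesicles for fusion, read -1.81 in Il18+/+ and -2.21 in Il18-/-, a difference of -0.40 by 1 probe. Rims1, which links vesicles to calcium channels and to Unc13 proteins, read -1.14 and -1.48, and its 2 probes differed by -0.45 and -0.24. The very large scaffold genes were nearly level. Bsn read 3.64 and 3.69, and Pclo read 1.31 and 1.27, its 4 probes lying between -0.11 and 0.07.

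Adhesion genes of both sides of the cleft had a median of 0.05 over 5 genes. Nrxn2 read 4.22 on both arrays, with its 2 probes at -0.06 and 0.06. Nrxn3 read 0.14 in Il18+/+ and -0.18 in Il18-/-, a mean of -0.32 over 6 probes that differed among themselves. All 3 neuroligin genes were slightly higher. Nlgn1, whose protein is found at excitatory synapses, read 1.27 and 1.51. Nlgn2, whose protein is found at inhibitory synapses, read 5.52 and 5.65, and Nlgn3 read -1.22 and -1.17.

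Among the 9 scaffold genes, 4 were higher and 5 lower, with a median of -0.04. Dlg4, the main membrane-associated guanylate kinase of the postsynaptic density, read 2.59 in Il18+/+ and 2.90 in Il18-/-, a difference of 0.32 or 1.25-fold by 1 probe. Its relative Dlg2 read -0.24 and -0.27. The 3 Shank genes, whose proteins form the deep layer of the density, did not share a direction. Shank1 read -0.88 and -1.08, with all 3 probes lower. Shank2 differed by -0.40, read by 1 dim probe at -4.08 and -4.48, and Shank3 read -0.84 and -0.69, a difference of 0.14. Homer1, which binds Shank proteins, read 0.63 and 0.19 as the mean of 5 probes, a difference of -0.44. The Dlgap genes encode the link between these layers. Dlgap1 read 1.18 and 1.29, Dlgap2 read 0.78 and 0.85, and Dlgap3 read 2.79 and 2.64, all within 1.2-fold.

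Shank3 shows how far a gene mean can hide its probes. Its main probe was printed 10 times, and the spots ran from 1.90 to 2.24 in Il18+/+, with a median of 2.11, and from 1.80 to 2.17 in Il18-/-, with a median of 2.03. The spots of both arrays overlapped, and the difference was -0.07 with an SD of 0.07 between spots. The other probe, a single dim spot, read -3.78 and -3.42, a difference of 0.36. The gene mean of 0.14 thus has the sign of the dim probe.

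Among the 3 genes of calcium and calmodulin signalling, 1 was higher and 2 lower. Camk2a and Camk2b encode subunits of the calcium- and calmodulin-dependent kinase of the density, and Nrgn encodes neurogranin, which binds calmodulin. Camk2a read 3.14 in Il18+/+ and 3.17 in Il18-/-, Camk2b read 4.81 and 4.68, and Nrgn read 4.49 and 4.33. The small differences of the kinase genes are averages of probes with opposite signs. For Camk2a the brighter probe went from 4.35 to 4.61 and the dimmer from 1.93 to 1.73. For Camk2b the brighter probe went from 7.34 to 7.51 and the dimmer from 2.28 to 1.86, a difference of -0.43.

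**Figure D2:**
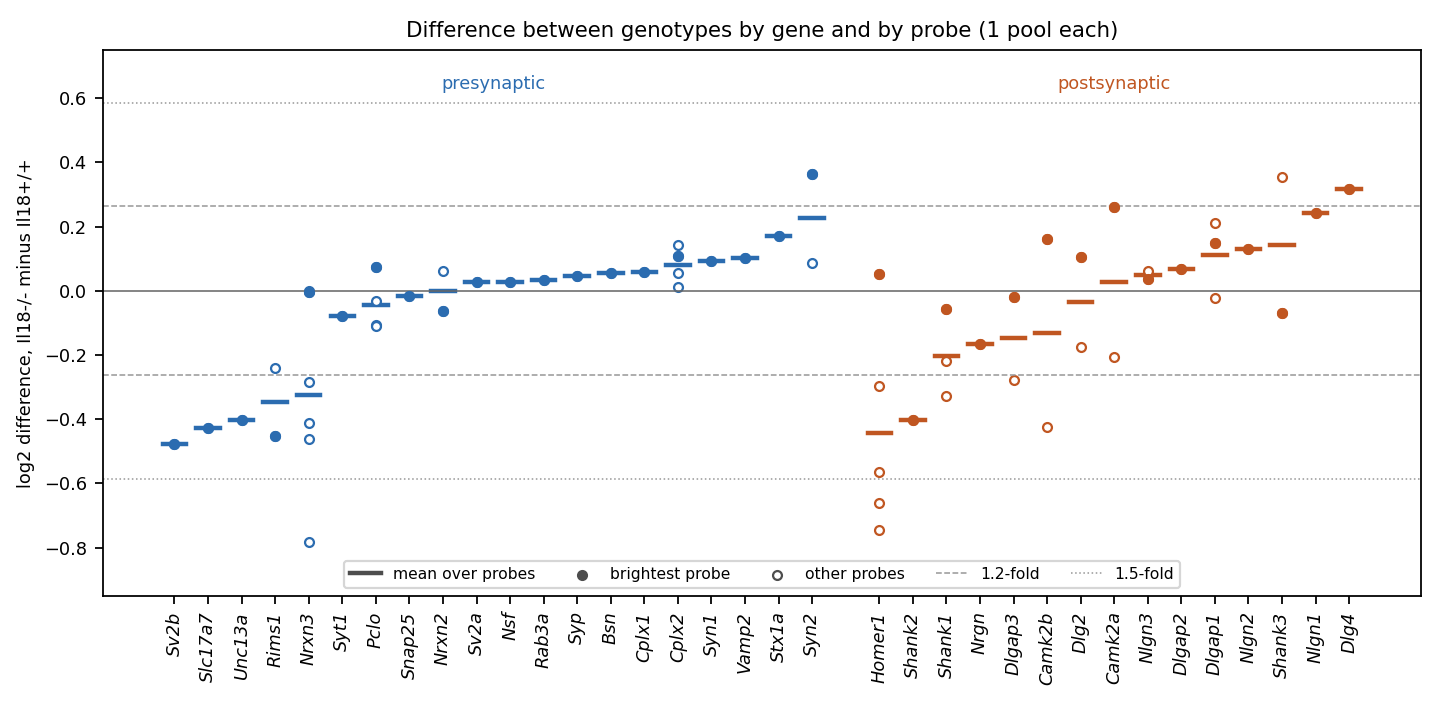
Difference between genotypes (vertical axis, log2, Il18-/- minus Il18+/+) for each gene, ordered within the presynaptic and postsynaptic side; bars are means over probes, filled circles the brightest probe and open circles the other probes, each from 1 pool per genotype. No gene mean passes the dotted 1.5-fold lines, and the probes of Homer1 run from -0.75 to 0.05.

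Presynaptic and postsynaptic genes were then set side by side. The 20 presynaptic genes had a median of 0.03, with 9 lower, and the 15 postsynaptic genes had a median of 0.03, with 7 lower. The medians differed by 0.0006, but this rested on the adhesion genes: without them the presynaptic median was 0.03 and the postsynaptic median -0.084, both by the mean over probes. At 1.2-fold, 5 presynaptic genes were lower and 0 higher, against 2 lower and 1 higher on the postsynaptic side, where 12.4% and 7.33% of all measured genes were lower and higher. With the brightest probe in place of the mean, the presynaptic median was 0.03 and the postsynaptic median 0.07, with 8 and 5 genes lower, 13 of 35 beside 43.1% of all measured genes. By brightest probe the count at 1.2-fold lower was 4 and 1, and over all 35 genes it was 5, beside 11.5% of all measured genes. At 1.2-fold higher it was 2, Syn2 and Dlg4, beside 7.89%. Homer1 and Nrxn3 are the genes that left the count. Rims1, Slc17a7, Sv2b, Unc13a and Shank2 stayed in it. The postsynaptic genes other than neuroligins were not below 0 as groups by brightest probe. Their medians were 0.05 for the 9 scaffold genes and 0.16 for the 3 calcium and calmodulin genes.

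The choice of probe mattered because probes of 1 gene differed. Of the 15 genes with several probes, 11 had a higher difference at the brightest probe than at the mean of their other probes, by a median of 0.22. The same held for 66.7% of the 4123 genes with several measured probes on the arrays, by a median of 0.08. For the 6 presynaptic genes the count was 4, and for the 9 postsynaptic genes it was 7. The gap was 0.62 for Homer1, 0.59 for Camk2b, 0.47 for Camk2a and 0.38 for Nrxn3, and it ran the other way for Shank3, at -0.42. Probe differences spanned at least 0.3 in 5 of the 15 genes, against 31.9% of all genes with several probes, and 9 of the 15 had probes on both sides of 0, against 44.3%.

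Differences moved with signal level over the whole array. Among all measured genes, the median difference was -0.08 in the lowest quartile of level, -0.04 and 0.02 in those between, and 0.07 in the highest. The synaptic genes followed this order: 20 of them lay in the highest quartile with a median of 0.03, 8 in the next with 0.01, 6 in the one below with -0.12, and Shank2, at -0.40, in the lowest. In each quartile their value was below the median of all genes. In the highest quartile 7 of the 20 synaptic genes were lower, where 26.2% of all genes were. To set each probe beside others of similar signal, all measured probes were cut into 20 bins of level. Of the 63 synaptic probes, 11 lay under the 5th percentile of their bin and 3 over the 95th, where 5.03% of all measured probes lie on each side by construction. The 11 were 3 probes each of Homer1 and Nrxn3 and 1 each of Slc17a7, Sv2b, Rims1, Camk2b and Nrgn. Since probes of 1 gene share a target, they are 7 genes and not 11 independent readings. The 3 over the 95th percentile were probes of Syn2, Dlg4 and Camk2a. Some probes passed their limit by little: Nrgn differed by -0.166 against a limit of -0.162, Rims1 by -0.452 against -0.438 and Camk2a by 0.261 against 0.253. The single probes of Unc13a and Shank2, although beyond 1.2-fold, lay inside the central range of probes as dim as they are.

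**Figure D3:**
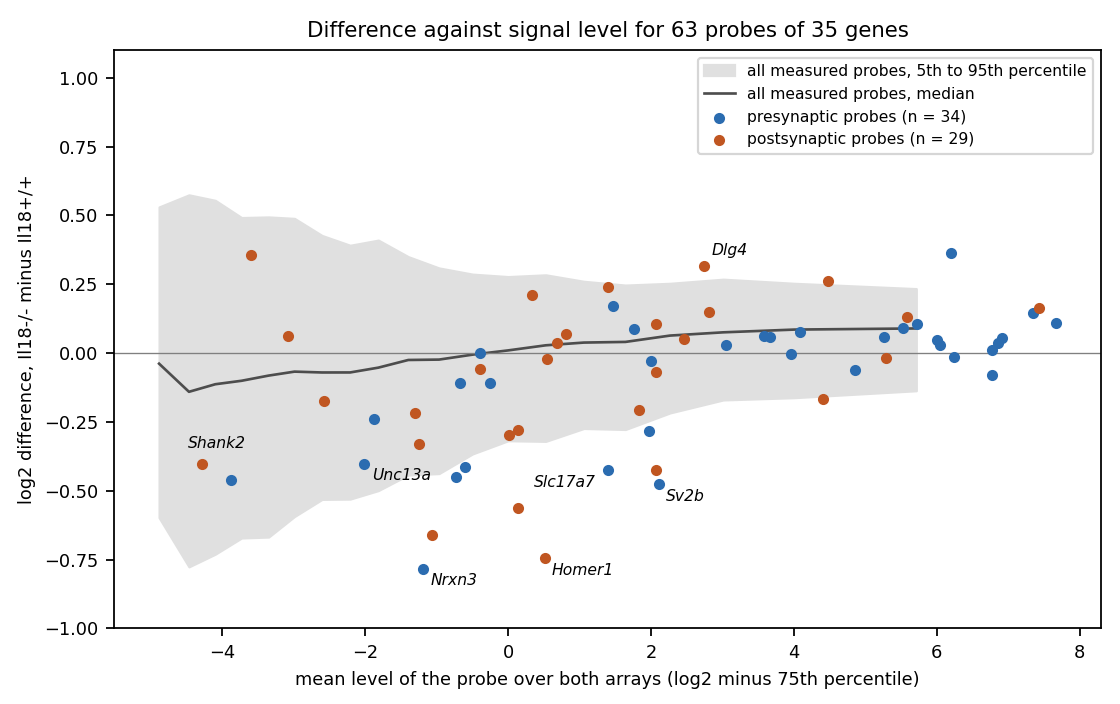
Difference of each of the 63 probes (vertical axis, log2, Il18-/- minus Il18+/+) against its mean level over both arrays (horizontal axis), over the median (line) and the 5th to 95th percentile (band) of all measured probes in 20 bins of level, drawn at the bins' median levels. Most bright presynaptic probes lie close to the line, the brighter Syn2 probe lies over the band, and probes of Homer1, Nrxn3, Sv2b and Slc17a7 lie under the band.

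The probes of Homer1 and Nrxn3 differed widely among themselves and are given by the transcript they were designed to. Homer1 links metabotropic glutamate receptors to Shank proteins, and the gene gives rise to long scaffold forms and to a short form induced by neuronal activity. Which accession stands for which form is not given in the sources used here. The 3 probes designed to NM_011982 went from 0.89 to 0.14, from 0.42 to -0.15 and from -0.73 to -1.39. All 3 were lower, with differences from -0.75 to -0.56, or 1.48-fold to 1.68-fold. The 2 probes designed to NM_147176 went from 2.44 to 2.49 and from 0.16 to -0.14. At 1.5-fold, 3 of the 63 synaptic probes were lower, 2 of Homer1 and 1 of Nrxn3, and 0 were higher, while 3.49% of all measured probes were at least 1.5-fold lower. The Homer1 probe at -0.75 had at least 2 of its 18 nearest spots 2-fold lower as well. The median over its measured neighbours was 0.01, and without that probe the gene mean was -0.37. No other probe of the 35 genes was in such a local cluster.

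Nrxn3, a neurexin gene with long and short forms from separate promoters, had probes designed to 3 transcripts. The 2 probes of NM_172544 went from -0.40 to -0.81 and from -0.80 to -1.58, differences of -0.41 and -0.78. The probe of NM_001252074 read -0.39 on both arrays. The 3 probes of NM_001198587 went from 3.96 to 3.96, from 2.11 to 1.83 and from -3.65 to -4.11. Thus 4 of 6 probes were lower by more than 0.2, and the brightest read the same in both genotypes. The Nrxn3 probes did not separate by transcript, since those of NM_001198587 ran from 0.00 to -0.46 and overlapped those of NM_172544.

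**Figure D4:**
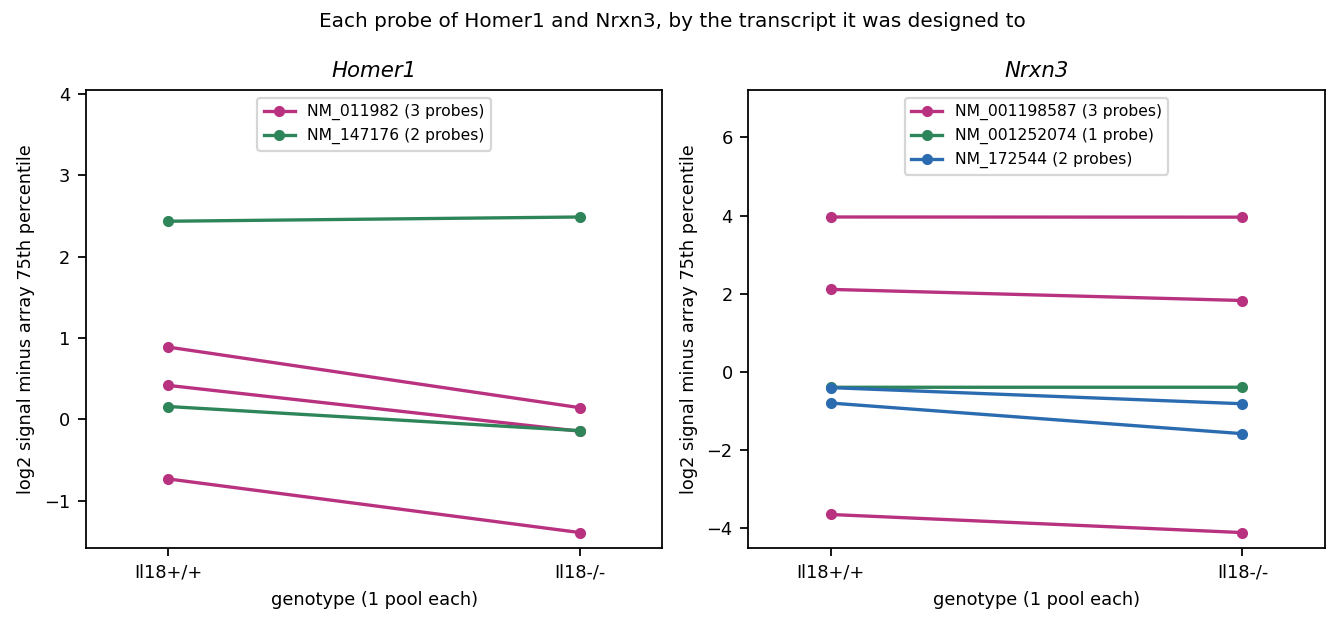
Level of every probe of Homer1 (left) and Nrxn3 (right) in the Il18+/+ and Il18-/- pools (vertical axis, log2 signal minus the array's 75th percentile), each line being 1 probe coloured by the RefSeq transcript it was designed to. The 3 probes of NM_011982 slope downward together, with differences from -0.75 to -0.56, and the brightest probe of each gene is level.

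The start regions of Slc17a7, Sv2b and Homer1, the 3 genes with the lowest mean differences, are shown as context for a reader who wishes to look at their control, since the arrays measure no promoter. Each is the 250 bases before the first start that RefSeq lists (GRCm38.p6), read 5′ to 3′ on the gene's strand. Capitals mark 2 motifs on either strand: TGACG or CGTCA, the half-site of the cyclic AMP response element, and GGGCGG or CCGCCC, the GC box. The Slc17a7 window is chr7:45163671-45163920 on the + strand, that of Sv2b is chr7:75309263-75309512 on the - strand, and that of Homer1 is chr13:93303507-93303756 on the + strand.
Slc17a7: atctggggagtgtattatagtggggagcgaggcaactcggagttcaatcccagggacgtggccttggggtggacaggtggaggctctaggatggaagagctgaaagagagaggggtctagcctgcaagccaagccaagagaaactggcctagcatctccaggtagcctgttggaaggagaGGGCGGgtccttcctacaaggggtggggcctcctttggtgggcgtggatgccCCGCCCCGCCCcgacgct
Sv2b: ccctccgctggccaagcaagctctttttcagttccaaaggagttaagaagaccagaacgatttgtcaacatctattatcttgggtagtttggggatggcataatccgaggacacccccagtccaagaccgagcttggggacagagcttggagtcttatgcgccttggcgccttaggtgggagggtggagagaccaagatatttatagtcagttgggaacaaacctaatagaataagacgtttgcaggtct
Homer1: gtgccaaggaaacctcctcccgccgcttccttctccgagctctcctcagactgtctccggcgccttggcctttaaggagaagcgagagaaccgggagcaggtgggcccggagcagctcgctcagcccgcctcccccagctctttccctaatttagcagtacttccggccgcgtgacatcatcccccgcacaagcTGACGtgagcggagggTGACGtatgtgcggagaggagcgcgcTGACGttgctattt

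The Homer1 window held 3 half-sites of the cyclic AMP response element and no GC box, the Slc17a7 window held 3 GC boxes and no half-site, and the Sv2b window held neither. RefSeq lists 2 starts for Homer1, 1 for Slc17a7 and 4 for Sv2b, and only the first of each is shown. Of 32851 windows of this length over all genes listed, 17.8% held the half-site and 32.7% the GC box. Start windows were listed for 27 of the 35 genes, 42 windows in all. Of the 42 windows 6 held the half-site and 16 the GC box. A match is a description of the letters, and no match says only that these letters are not in this window.

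Other synaptic genes gave the background for these members. Of 50 further genes listed as presynaptic, whose place at the terminal was not checked here, 49 were measured, 25 higher and 24 lower, with a median of 0.00. At 1.2-fold 8 were lower and 5 higher. The lowest were Syt10, at -0.92, Syt2, at -0.67, and Cplx3, at -0.61, and the highest were Syt12, at 3.83, Syt9, at 0.88, and Rims4, at 0.49. Syt2, Syt9, Syt10 and Syt12 belong to the synaptotagmin family and Cplx3 is a complexin. The 1 probe of Syt12 had neighbouring spots that differed the same way, with a median of 1.04 around it, and so did 2 or more neighbours of the Syt10 and Cplx3 probes. Of 34 further genes listed as postsynaptic, whose place at the synapse was also not checked, 32 were measured, 17 higher and 15 lower, with a median of 0.01. At 1.2-fold 5 were lower and 0 higher. The lowest were Lin7c, at -0.60, Dlg1, at -0.36, and Camk2d, at -0.31. The highest were Dlg3, at 0.20, Iqsec2, at 0.19, and Ppp1r9b, at 0.18.

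Close relatives of the genes that read lower were picked out after their values had been seen. Of the vesicular glutamate transporters, Slc17a6 went from 0.82 to 0.63 and Slc17a8 from -1.10 to -1.35, both lower like Slc17a7. Of the Unc13 family, Unc13c went from -1.27 to -1.76, while Unc13b went from 2.82 to 2.98. Of the Rims family, Rims2 went from -1.31 to -1.59 and Rims3 from -4.39 to -4.96, while Rims4 went from -4.70 to -4.21. Sv2c, a relative of Sv2b, went from -4.88 to -5.18. The probes of Rims3, Rims4 and Sv2c were all dim.

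The labelled tissue was checked against markers. All 10 neuron markers were measured, 4 higher and 6 lower, with a median of -0.02 and none beyond 1.2-fold. Rbfox3, a nuclear marker of neurons, read 3.54 in Il18+/+ and 3.70 in Il18-/-. All 9 dentate and hippocampal markers were well above background in both genotypes, among them Prox1, at -1.31 and -1.15, and 6 of the 9 were higher, with a median of 0.21. Tbr1, at 0.09 and 0.15, which is well known from neocortex, was also above background, and no list here separates hippocampus from prefrontal cortex. Of 6 glutamatergic markers, which include Slc17a7, 4 were lower, with a median of -0.13. The remaining ones did not share the size of Slc17a7: Neurod6 differed by 0.21 and Neurod2 by -0.12.

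Markers of other cell types differed between the pools to unlike extents. All 6 GABAergic markers were lower, with a median of -0.18, and so were 7 of 8 oligodendrocyte markers, with a median of -0.21. At 1.2-fold, 2 of the GABAergic and 3 of the oligodendrocyte markers were lower, and 1 oligodendrocyte marker was higher. Among all measured genes 12.4% were lower and 7.33% higher at this size. All 8 choroid plexus markers were lower, their summed level going from 8.55 to 7.56. All 5 measured medial habenula markers were higher, from 0.56 to 2.78 in sum, with Chrna3 not measured on both arrays. Of 6 measured liver markers 5 were higher, the exception being Ttr, which also marks the choroid plexus. All 5 olfactory mucosa markers were higher, with a median of 0.97: Bpifb4 differed by 4.68, Bpifb6 by 3.73 and Omp by 0.97, while Gng13, at 0.05, carried most of the summed level of 4.28 and 4.46. The 5 liver genes that were higher lay between -4.95 and -2.70 in Il18+/+ and between -1.48 and -0.01 in Il18-/-. Astrocyte, microglia and endothelial markers had medians of 0.08, -0.05 and -0.10. The part of these other cells in the synaptic values was not tested.

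**Figure D5:**
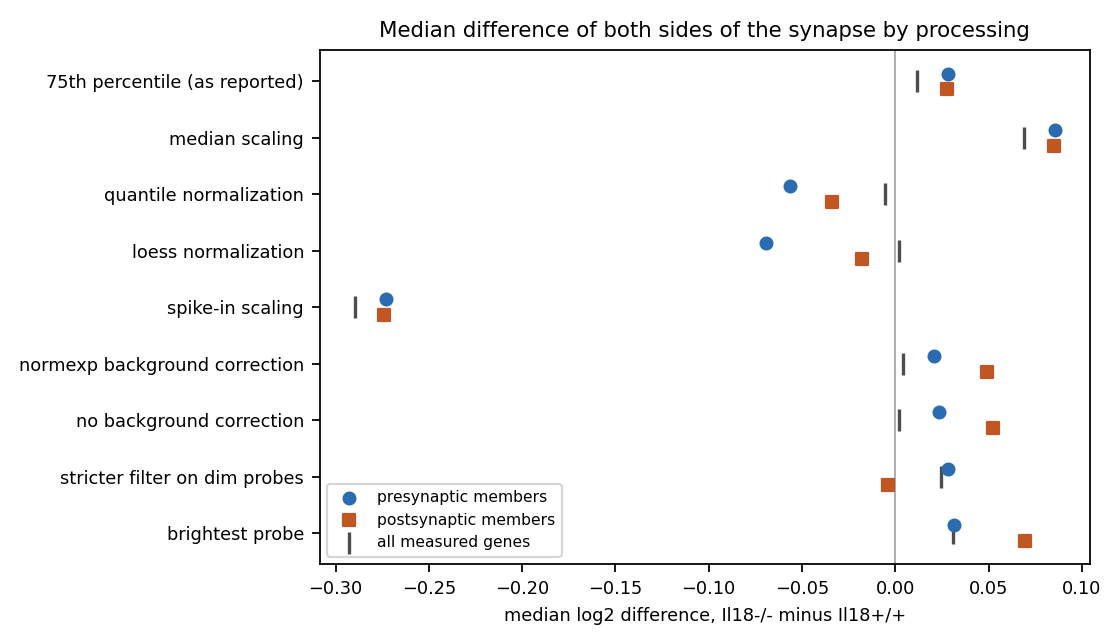
Median difference (horizontal axis, log2, Il18-/- minus Il18+/+) of the 20 presynaptic genes (circles), the 15 postsynaptic genes (squares) and all measured genes (ticks) under 9 ways of processing the same 2 arrays. Quantile and loess normalization put both sides of the synapse below 0, and scaling to spike-in controls moves them to -0.27.

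The direction of the group medians followed the scaling. With quantile normalization the presynaptic median was -0.06 and the postsynaptic median -0.03, and with loess normalization, which removes the trend with level, they were -0.07 and -0.02. The stricter filter on dim probes put the postsynaptic median at -0.0039. All 7 genes that were at least 1.2-fold lower stayed so under quantile and loess normalization. Dlg4, the 1 higher gene, was just under 1.2-fold (0.263 on the log2 scale) with both of these, at 0.256 and 0.257. Under the stricter filter 6 of the 7 stayed lower by this size, and Shank2 was not measured.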

How the data were processed

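Cy3-labelled RNA of 1 pool (7 mice) was read on each of 2 Agilent arrays. Spot intensity in the deposited scanner files comes from Agilent Feature Extraction 10.10.1.1, as the submitters' processing notes also name it. Per the file headers, both arrays were read in 1 scan and their design refers to mm9. The authors' deposited value table is linear and uncentred: it equals this intensity times 2.05 (Il18+/+) or 1.92 (Il18-/-), and its medians are 151.5 and 139.5. What these constants were set to is unknown.

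Control spots and outlier spots (124 and 177) were left out, log2 intensity was reduced by the 75th percentile over all 59305 spots that are not controls (an intensity of 694.8 and 709.9), and spots of 1 probe were averaged. Probes were named by unversioned accession through RefSeq genes of GRCm38.p6, which named 27234 of 55675 probes with 1 symbol and none with several. A gene is the mean over probes well above background on both arrays. The calculation was tested on simulated data.

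The 35 genes, their roles, the lists of other synaptic genes and the markers were chosen with earlier results of these data known. The naming rule was every member, probe values for members whose probes span 0.3 or more, and the 3 highest and 3 lowest other genes on each side. Transcript groups, level bins and motifs were added later. The 1.2-fold size was also set after the values were seen. Alternatives were other scalings, background corrections, filters and probe choices, the deposited table, and leaving out probes in local clusters (a 1.5-fold spot of whose 18 nearest spots 2 or more differ 2-fold in its direction). Normexp (offset 50) was run on median signals. Tools were Python 3.11.15, pandas 2.3.3, scipy 1.17.1, matplotlib 3.10.9, R 4.3.3 and limma 3.58.1.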

Additional observations from a re-analysis of the deposited data

Results flagged for a closer look

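The spike-in control probes, RNA added in fixed amounts and not used for any gene value, had a median difference of 0.30 over 8 probes after scaling, higher in Il18-/- than in Il18+/+. Setting them equal lowers every gene by that amount.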

How the results depend on the processing

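With 1 pool per genotype, no replicate could be left out. No paired analysis was possible because each genotype has 1 sample. A value was taken as moved when it changed by more than the median spot SD of 0.07, and a count when it changed by more than 1.5 times. The deposited table, keeping outlier spots and the median over probes moved no group value. The median of the 35 genes was -0.051 with quantile and -0.051 with loess normalization, and -0.27 with spike-in scaling. The presynaptic median was -0.057, -0.069 and -0.27 in that order. The postsynaptic median was -0.27 with spike-in scaling, and -0.084 when the neuroligins were left out. Lower genes numbered 25 with loess and 34 with spike-in scaling. At 1.2-fold lower there were 20 with spike-in scaling, and 7 of the 35 reached 1.5-fold there. At 1.2-fold higher there were 0 with quantile, loess and spike-in scaling, 3 with median scaling and with no background correction, and 2 with normexp and with the brightest probe. The further genes listed as presynaptic and postsynaptic had medians of -0.30 and -0.29 with spike-in scaling. All measured genes at 1.5-fold higher and lower numbered 128 and 1728 with spike-in scaling, 113 and 107 with normexp, 132 and 147 with no background correction, 814 and 1356 with no filter on dim probes, and 156 and 195 with the stricter filter. Homer1 was 0.052 by its brightest probe. Of the 7 genes at least 1.2-fold lower, Shank2 was under that size with normexp and with no background correction and was not measured under the stricter filter, and Homer1 and Nrxn3 were under it by brightest probe. Slc17a7 lay between -0.46 and -0.37 and Sv2b between -0.53 and -0.42 in all settings but spike-in scaling. Dim probes limit Shank2, whose error by the extraction software was 0.29, against a median of 0.20 over the 63 probes. This error also limits genes with brighter probes. It was 0.20 for Dlg4, which differed by 0.32, and 0.21 for Unc13a, which differed by -0.40. Of the 35 genes, 13 differed by more than their own error. The wider, usual normal limit of that error was passed by 5: Slc17a7, Sv2b, Rims1, Nrxn3 and Homer1. Dlg4, Unc13a and Shank2 did not pass it.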
